A study of Mus musculus with 24 samples.

Results

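The 34 genes described here code for the glycogen, glycolysis, gluconeogenesis and fructose enzymes of mouse liver, together with the transporters and regulatory proteins that act on them. They were chosen by symbol, with earlier results of these data known: 9 glycogen genes, 4 genes of glucose entry and exit, 4 of gluconeogenesis, 12 of glycolysis with lactate formation, 3 of the pyruvate dehydrogenase step and 2 of fructose use. All 34 were found among the 56941 genes of the deposited tables, and all 34 were among the 20514 genes that passed the filter on low counts and were tested. Polyadenylated liver RNA had been sequenced in 24 libraries, 3 in each of 8 groups. Global knockouts (KO, Bmal1-/-) and their wild-type controls (WT, Bmal1+/+) were bred from a Bmal1+/- cross in C57BL/6J. The liver-specific line (LKO) carried Alb-Cre and Bmal1f/f, so that Cre is driven by the albumin promoter and other cells of the body keep intact alleles, and their controls (F) carried Bmal1f/f without Cre. No group carried Cre without floxed alleles, so the effect of Cre itself cannot be told apart from that of the deletion. Livers of each genotype were taken at 2 circadian times, CT2 in the subjective morning and CT14 in the subjective evening. The animals' ages, and whether the 3 libraries of a group came from separate animals, are not given in the labels, and p-values measure the spread between these libraries only.

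The liver stores glucose as glycogen after feeding and releases it between meals. Glycogen synthase extends the glycogen chain and glycogen phosphorylase shortens it, and the glucose-6-phosphatase system frees it for export through GLUT2. Glycolysis runs from glucose 6-phosphate to pyruvate, gluconeogenesis runs the opposite way through its own bypass enzymes, and fructose enters below the main control point of glycolysis through ketohexokinase. BMAL1 pairs with CLOCK to activate genes from E-box sequences and is at the centre of the circadian clock, and many of these liver genes follow a daily rhythm of clock and feeding.

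Total counts ran from 88995259 to 131544733 per library, and replicates correlated across genes at 0.933 to 0.973 (Pearson, log2 scale). Bmal1 itself stood at 30.7 to 33.8 CPM (counts scaled to library size) in WT and 7.15 to 7.57 CPM in KO at CT2, and at 26.6 to 29.8 CPM in F and 6.57 to 7.91 CPM in LKO. At CT14, near the low point of its rhythm in the controls, Bmal1 ranges overlapped between WT (2.93 to 8.16 CPM) and KO (6.66 to 7.53 CPM) and between F (3.26 to 15 CPM) and LKO (5.46 to 5.96 CPM). Some libraries stood apart. F CT2 replicate 3 and F CT14 replicate 3 held pancreatic acinar transcripts, 2031 and 670 CPM summed over 8 marker genes against 24.1 to 102 CPM elsewhere. F CT2 replicate 3 and LKO CT2 replicate 3 had the lowest mitochondrial shares, 1.37% and 1.82% of counts. Hepatocyte markers summed to 80436 to 116192 CPM in WT and 53691 to 90161 CPM in KO, and to 93330 to 136099 CPM in F and 60826 to 85412 CPM in LKO. Of these 8 markers, 2 were lower in KO than in WT and 1 was lower in LKO than in F as the mean of both times, none was at 0, and albumin itself was 0.87 (KO) and 0.97 (LKO) log2 units lower. The part of these differences in the results below was not tested, and in bulk tissue fewer cells of a type and less RNA per cell cannot be told apart. Summed markers of Kupffer cells, endothelium and stellate cells overlapped between all genotypes. Markers of cholangiocytes were highest in KO CT14 replicate 3 (266 CPM), followed by KO CT2 replicate 3 (176 CPM). Those of skeletal muscle were highest in LKO CT2 replicate 2 (31.8 CPM), followed by KO CT14 replicate 2 (10.4 CPM). The part of these transcripts in the results was not tested.

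Against their controls, the knockouts differed in the glycogen genes Gys2 and Ppp1r3c, the glucose entry and exit genes Slc2a2, Slc37a4 and Gckr, the glycolytic genes Pklr, Eno1, Ldha, Pgk1, Pfkfb1 and Pfkfb3 and the fructose genes Khk and Tkfc, each in at least 1 comparison. A gene was called when its adjusted p was under 0.05, in edgeR's quasi-likelihood test with Benjamini-Hochberg adjustment over all genes tested. As the mean of both times, 3 members were higher and 6 lower in KO than in WT, where 3.11% of all genes tested were higher and 2.29% lower (5.40% called). The count was 14 without the F and LKO libraries that held pancreatic transcripts or a low mitochondrial share. In LKO against F, 1 member was higher and 7 were lower, where 1.70% of all genes were higher and 1.43% lower (3.13% called). The same 5 members were lower in both knockouts (Gys2, Slc2a2, Pklr, Khk and Tkfc), which is 5 of the 6 lower in KO and 5 of the 7 lower in LKO. Gckr was higher in both by this mean. The split by direction depended on the method. With limma on TPM, 4 members were higher and 4 lower in LKO, where 1645 of 20514 genes were called. In KO, 5 were higher and 6 lower by limma on TPM, where 1690 genes were called. Over both times, the authors' deposited table for LKO against F called 3 members, beside 3.65% of its genes. Of the 5 shared lower members it called Khk alone. The others missed its threshold, with adjusted p = 0.0975 for Gys2, 0.0517 for Slc2a2, 0.0574 for Pklr and 0.0635 for Tkfc. The median log2 difference over the 34 members was -0.15 in KO and -0.13 in LKO, beside 0.01 and -0.01 over all genes tested.

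More members were called at CT14 than at CT2. In KO against WT at CT14, 3 members were higher and 8 lower, beside 3.15% and 2.15% of all genes (5.31% called). There the values of the groups did not overlap for 19 of the 34 members, beside 25.9% of all genes. At CT2, 2 members were higher in KO, beside 0.327% of all genes, and 0 lower (0.517% called in either direction). Of these, Gckr missed the threshold with only WT and KO at CT2 fitted (adjusted p = 0.0959). In LKO against F at CT14, 2 members were higher and 5 lower, beside 0.814% and 0.912% of all genes (1.73% called), and the values did not overlap for 24 members, beside 23.6% of all genes. The count called was 11 when only the compared groups entered the fit, and 3 to 5 when any single library compared was left out. The authors' deposited table called 18 members there, beside 11.7% of its genes, among them all 7 that edgeR called. For KO against WT at CT14 their table called 15 members, beside 12.3% of its genes, among them all 11 that edgeR called. At CT2 no member was called in LKO against F by edgeR, with 0.400% of all genes called. There 8 members had an unadjusted p under 0.05, DESeq2 called 3 members, limma on TPM called 1, and edgeR called 2 without the libraries with pancreatic transcripts or a low mitochondrial share. Differences at CT2 could be about as large as at CT14 without a call, as for Khk in LKO (-0.77 and -0.86) and Gckr in LKO (0.58 and 0.53). Over all 15 comparisons, edgeR called 15 members at least once, beside 12.2% of all genes, and 19 never. Some of those 19 were called in the authors' deposited tables, as given with each gene.

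**Figure D1:**
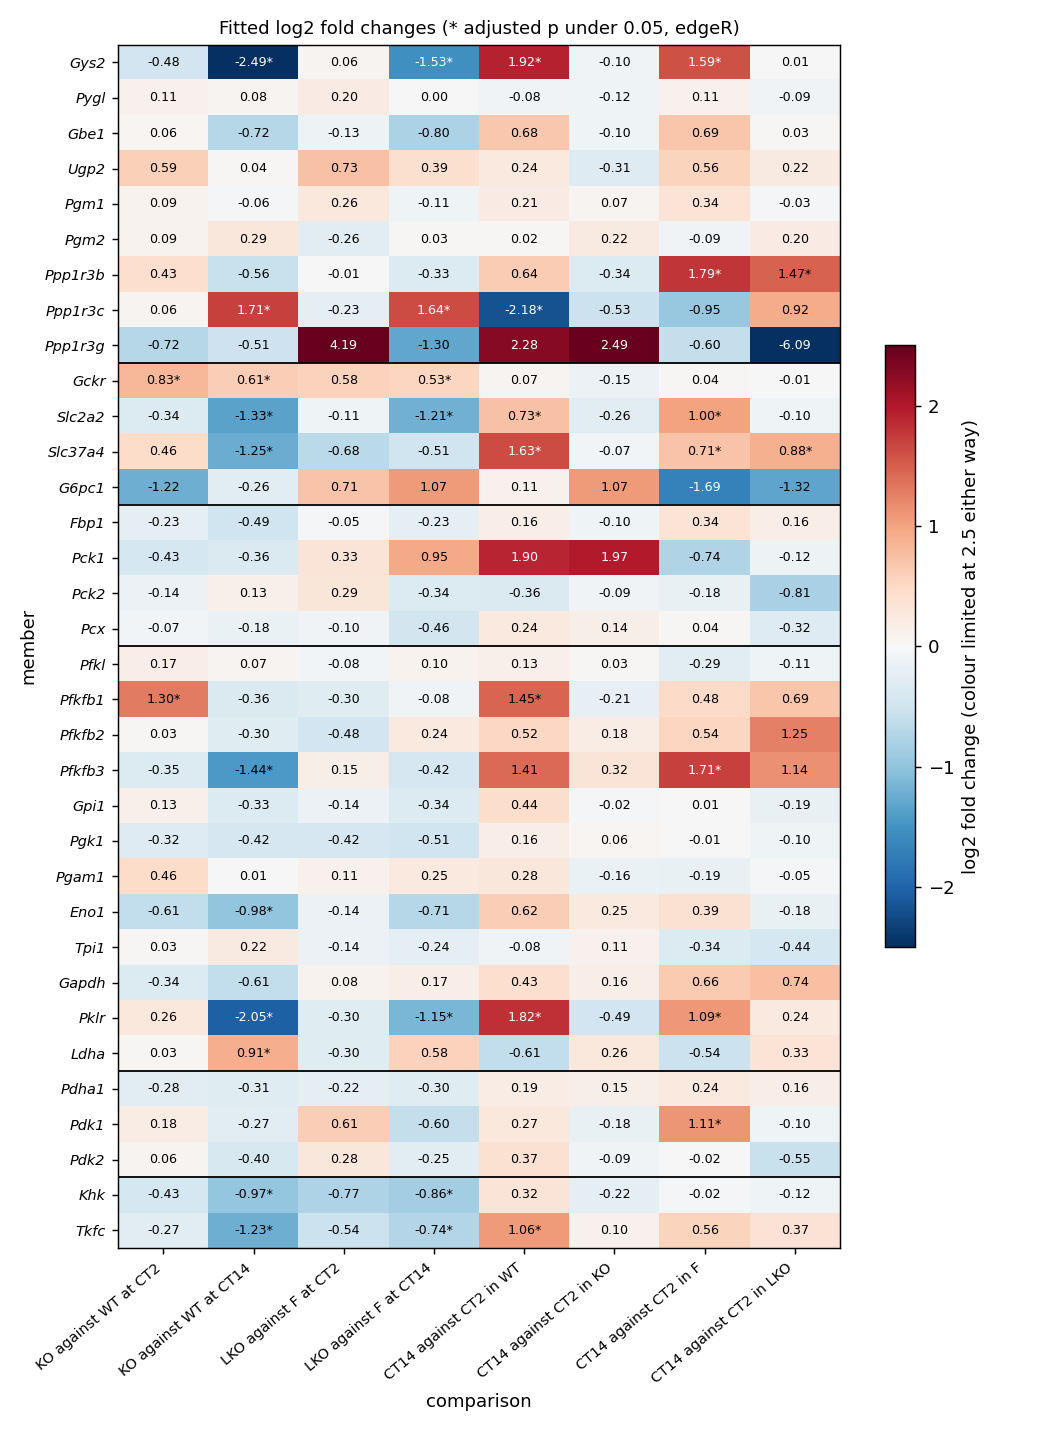
Fitted log2 fold changes of the 34 members (rows, grouped by role from glycogen at the top to fructose at the bottom) in 8 comparisons (columns), with an asterisk at adjusted p under 0.05 in edgeR. The knockout columns at CT14 hold 11 asterisks for KO and 7 for LKO, against 2 and 0 at CT2, and the column for time in KO holds none.

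The start regions of the members are shown for 5 genes, since BMAL1 acts through the E-box and the nuclear receptors RORα and REV-ERB, which couple it to the clock's other loop, bind AGGTCA elements. RefSeq windows of 250 bases before to 50 bases after the transcription start (build GRCm38.p6) were found for 32 members, 48 windows in all, and none for Gys2 and Ppp1r3b. The E-box letters CACGTG, which read the same on both strands, stood in 7 of these windows (14.6%), beside 7.15% of all 32851 windows. They were found for Khk, Ldha, Pcx, Pdk2, Pfkfb2, Pfkfb3 and Ppp1r3c. AGGTCA, searched on both strands, stood in 9 windows (18.8%), beside 16.3% of all windows. The members were Eno1, G6pc1, Pcx, Pfkfb1, Pklr, Pygl, Slc2a2, Slc37a4 and Tpi1. Of these, Pfkfb1, Pklr, Slc2a2 and Slc37a4 were called for time in WT by edgeR and the others were not. Beside this, 7 of all 34 members and 2.54% of all genes were called there. Of the members with an E-box, Ppp1r3c alone was called for time in WT. Whether either motif had a part in these calls was not tested. A match is a description of the letters in the window and not a measured binding site. The first 3 sequences carry the E-box in capitals, at -71 for Khk, at -104 for Ppp1r3c and at -145 and -48 for Ldha, counted from the start to the motif's first base. The last pair carries AGGTCA or its reverse complement in capitals, at -127 for Slc37a4 and at -151 for Pklr, both of which differed between CT2 and CT14 in WT. Each sequence is written 5′ to 3′ along the gene's strand.
Khk promoter, chr5:30921309-30921608, plus strand: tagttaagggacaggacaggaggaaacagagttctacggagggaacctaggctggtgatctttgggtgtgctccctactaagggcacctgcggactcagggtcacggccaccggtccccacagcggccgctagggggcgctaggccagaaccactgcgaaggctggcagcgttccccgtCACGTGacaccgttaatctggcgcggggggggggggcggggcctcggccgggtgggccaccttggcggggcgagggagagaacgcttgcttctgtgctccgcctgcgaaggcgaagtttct
Ppp1r3c promoter, chr19:36736555-36736854, minus strand: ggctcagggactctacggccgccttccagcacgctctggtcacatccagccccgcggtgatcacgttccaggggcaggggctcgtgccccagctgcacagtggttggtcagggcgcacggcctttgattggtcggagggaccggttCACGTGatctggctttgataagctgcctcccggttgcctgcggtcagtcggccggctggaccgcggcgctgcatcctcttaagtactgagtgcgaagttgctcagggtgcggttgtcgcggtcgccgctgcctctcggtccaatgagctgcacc
Ldha promoter, chr7:46845554-46845853, plus strand: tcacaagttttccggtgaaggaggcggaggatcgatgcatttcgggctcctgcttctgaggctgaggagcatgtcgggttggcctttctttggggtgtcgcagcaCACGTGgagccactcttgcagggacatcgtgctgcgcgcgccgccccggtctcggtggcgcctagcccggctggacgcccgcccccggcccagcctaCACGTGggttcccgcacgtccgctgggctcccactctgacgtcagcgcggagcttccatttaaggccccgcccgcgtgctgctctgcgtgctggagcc
Slc37a4 promoter, chr9:44396696-44396995, plus strand: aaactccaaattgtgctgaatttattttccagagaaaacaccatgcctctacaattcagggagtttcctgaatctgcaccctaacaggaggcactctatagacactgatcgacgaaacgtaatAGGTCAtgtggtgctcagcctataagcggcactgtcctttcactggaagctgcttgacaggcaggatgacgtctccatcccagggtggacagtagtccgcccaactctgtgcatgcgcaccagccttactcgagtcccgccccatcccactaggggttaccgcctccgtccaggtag
Pklr promoter, chr3:89135892-89136191, plus strand: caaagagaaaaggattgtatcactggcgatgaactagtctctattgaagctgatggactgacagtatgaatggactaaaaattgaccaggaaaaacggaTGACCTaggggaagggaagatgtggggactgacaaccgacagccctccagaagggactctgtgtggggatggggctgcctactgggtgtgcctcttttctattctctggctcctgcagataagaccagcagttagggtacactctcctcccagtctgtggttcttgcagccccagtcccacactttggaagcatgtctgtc

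Among the glycogen genes, Gys2, the liver glycogen synthase, had the widest difference of those called. WT libraries showed 72.6, 77.3 and 83.7 CPM at CT2 versus 259, 331 and 291 CPM at CT14 (replicates 1, 2 and 3). In KO the values were 54.5, 61.6 and 51.9 CPM at CT2 versus 61.4, 55.0 and 41.0 CPM at CT14. All 3 WT libraries at CT14 lay far above the other 9 of these libraries, and the KO values at CT14 overlapped those at CT2. Gys2 was 5.61-fold lower in KO than in WT at CT14 (log2 -2.49 ± 0.18, SE, adjusted p = 3.7e-08). In F it stood at 82.9, 75.3 and 64.3 CPM at CT2 versus 278, 223 and 169 CPM at CT14. In LKO it stood at 72.8, 83.5 and 75.6 CPM at CT2 versus 69.4, 80.6 and 82.8 CPM at CT14. Here too the control libraries at CT14 lay above all others, and the log2 difference of LKO from F at CT14 was -1.53 ± 0.17 (adjusted p = 3.24e-05). At CT2 the difference was -0.48 ± 0.17 in KO (adjusted p = 0.365) and 0.06 ± 0.17 in LKO (adjusted p = 0.996).

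Ppp1r3c codes for a subunit that brings protein phosphatase 1 to glycogen, where it favours synthesis, and its window with an E-box is printed above. It ran opposite to Gys2 in WT, with 172, 146 and 160 CPM at CT2 versus 20.3, 39.5 and 45.9 CPM at CT14. KO libraries held 177, 140 and 182 CPM at CT2 versus 55.9, 127 and 162 CPM at CT14, so that the groups did not overlap at CT14. The KO difference at CT14 was 1.71 ± 0.35 (adjusted p = 0.00508), and it missed the threshold when only WT and KO at CT14 were fitted (adjusted p = 0.117). In F the values were 127, 163 and 74.0 CPM at CT2 versus 40.2, 83.2 and 65.5 CPM at CT14. LKO rose above them at CT14, with 196, 220 and 172 CPM after 121, 87.9 and 102 CPM at CT2. That difference was 1.64 ± 0.35 (adjusted p = 0.0148). It was no longer called without F CT14 replicate 1 or 3 or LKO CT14 replicate 1 or 2 (adjusted p up to 0.0883), nor without the libraries with pancreatic transcripts or a low mitochondrial share (adjusted p = 0.0612). As the mean of both times Ppp1r3c was called higher in KO (0.88 ± 0.24, adjusted p = 0.0371). Leaving out any of 9 of the 12 libraries ended that call, and WT CT14 replicate 3, KO CT2 replicate 2 and KO CT14 replicate 1 were the exceptions. The authors' deposited table did not make that mean call (adjusted p = 0.656).

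Ppp1r3b, which codes for the main targeting subunit of liver, differed with time in the F line. F libraries held 245, 93.6 and 103 CPM at CT2 versus 525, 522 and 484 CPM at CT14, without overlap (log2 1.79 ± 0.32, adjusted p = 0.00319). LKO libraries held 153, 139 and 146 CPM at CT2 versus 426, 395 and 394 CPM at CT14 (1.47 ± 0.32, adjusted p = 0.0373), a call that any single LKO library left out brought to an adjusted p between 0.0791 and 0.174. In WT the ranges met, with 148 to 367 CPM at CT2 versus 316 to 383 CPM at CT14, and in KO the CT14 values of 180 to 318 CPM overlapped the 289 to 330 CPM of CT2. The remaining 6 glycogen members were not called in any comparison by edgeR. Pygl, the liver glycogen phosphorylase that breaks glycogen down, stayed between 349 and 533 CPM over all 24 libraries. Its log2 differences were 0.08 in KO and 0.00 in LKO at CT14. Gbe1, the branching enzyme, was 0.72 and 0.80 log2 units below its controls at CT14 in KO and LKO without passing the threshold in edgeR. The authors' deposited tables called Gbe1 lower in both, with adjusted p = 0.00192 and 1.51e-07. Ugp2, which makes UDP-glucose, and the phosphoglucomutase genes Pgm1 and Pgm2 gave no call in edgeR, and the authors' deposited table called Ugp2 higher in LKO at CT14 (adjusted p = 0.0116). Ppp1r3g, another targeting subunit, was under 1 CPM in all libraries except LKO CT2 replicate 2 (8.29 CPM) and WT CT14 replicate 1 (1.77 CPM). The authors' deposited table called it lower at CT14 than at CT2 in LKO (adjusted p = 0.00106), a comparison that holds that LKO library.

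**Figure D2:**
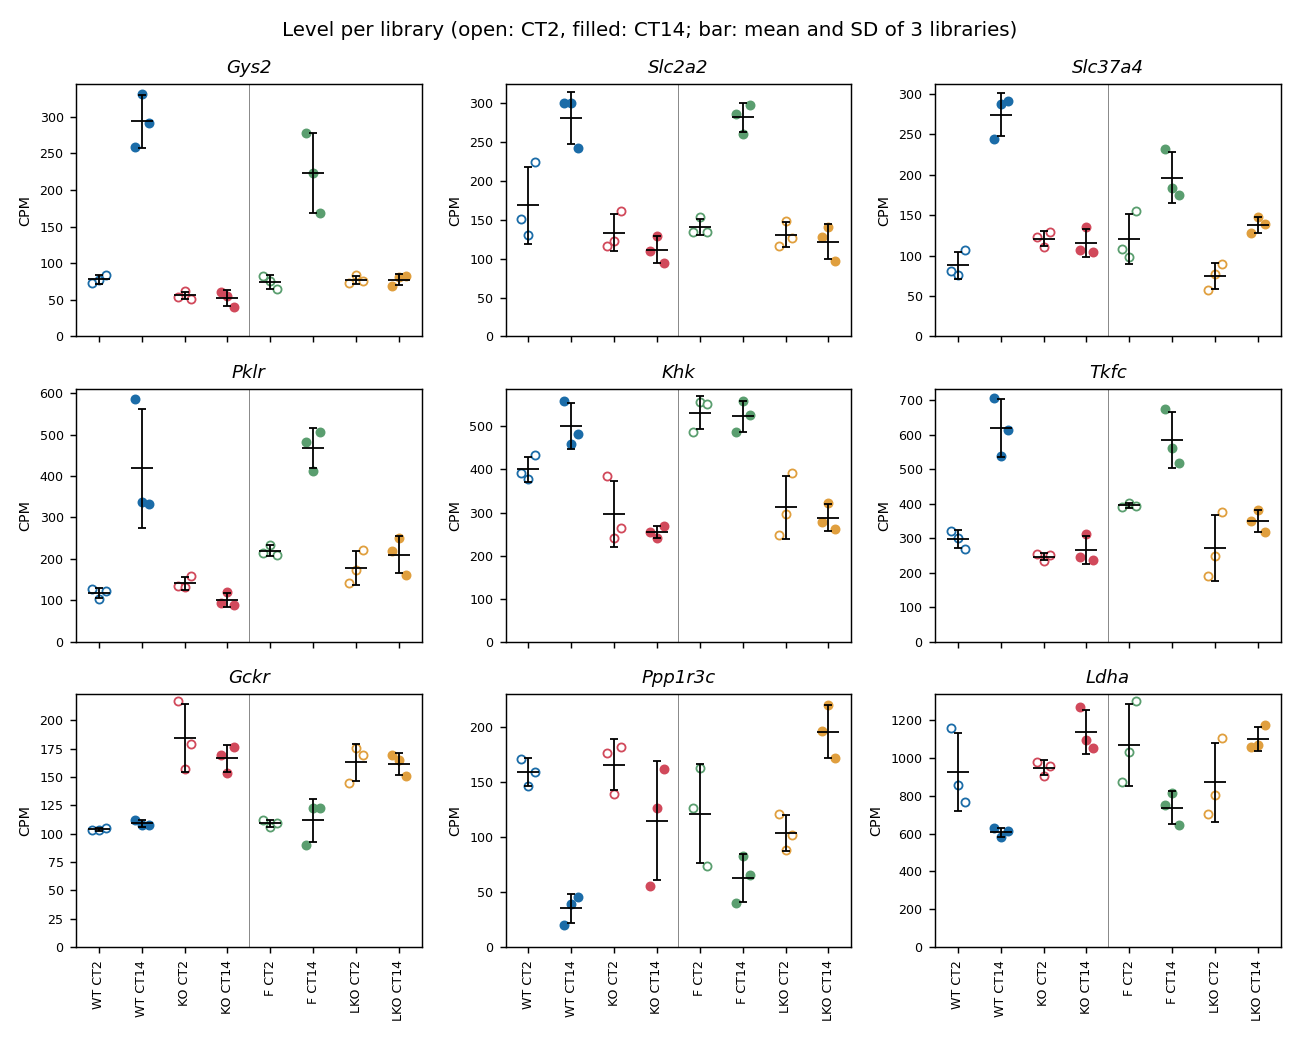
CPM per library (vertical axis from 0) of 9 members in the 8 groups, open points for CT2 and filled points for CT14, with the mean and SD of 3 libraries. Gys2 is high only in WT CT14 (259 to 331 CPM) and F CT14 (169 to 278 CPM), and Gckr is higher in KO and LKO than in their controls at both times.

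At the step where glucose enters and leaves the hepatocyte, edgeR called Slc2a2, Slc37a4 and Gckr. Slc2a2, the GLUT2 transporter, stood at 151, 131 and 225 CPM at CT2 versus 300, 300 and 243 CPM at CT14 in WT. KO libraries held 117, 123 and 161 CPM at CT2 versus 111, 130 and 94.7 CPM at CT14, below every WT library of that time. The difference at CT14 was -1.33 ± 0.19 in KO (adjusted p = 0.000181). F held 135, 153 and 135 CPM at CT2 versus 287, 261 and 298 CPM at CT14, and LKO 117, 148 and 127 CPM at CT2 versus 128, 141 and 97.3 CPM at CT14. The control libraries at CT14 stood above all knockout libraries, and the LKO difference there was -1.21 ± 0.19 (adjusted p = 0.00105). As the mean of both times it was -0.66 ± 0.13 (adjusted p = 0.00719), and it missed the threshold in limma on TPM (-0.44, adjusted p = 0.08).

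Slc37a4 moves glucose 6-phosphate into the endoplasmic reticulum, where glucose-6-phosphatase acts, and its window with an AGGTCA element is printed above. WT libraries held 81.1, 76.6 and 108 CPM at CT2 versus 245, 287 and 292 CPM at CT14, against 123, 111 and 129 CPM and 107, 136 and 104 CPM in KO. The groups did not overlap at CT14, where KO was lower by 1.25 ± 0.19 log2 units (adjusted p = 0.00033). In the floxed line F held 108, 97.9 and 155 CPM at CT2 versus 232, 183 and 175 CPM at CT14, and LKO 57.9, 77.9 and 89.5 CPM and 128, 148 and 139 CPM. LKO lay below F at both times but still rose between them, and as the mean of both times it was 0.59 ± 0.13 log2 units lower (adjusted p = 0.0139). That call was lost in limma on TPM (-0.28, adjusted p = 0.265) and with only F and LKO fitted (adjusted p = 0.0605). The authors' deposited table did not make it (adjusted p = 0.406). At CT14 alone their table called Slc37a4 lower in LKO (adjusted p = 0.00602), where edgeR did not.

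Gckr, which codes for a regulatory protein of hepatic glucose use, was the member higher in both knockouts as the mean of both times. WT libraries held 103, 103 and 105 CPM at CT2 versus 112, 107 and 107 CPM at CT14. KO libraries held 217, 157 and 179 CPM at CT2 versus 169, 153 and 177 CPM at CT14, above every WT library. The mean difference was 0.72 ± 0.09 (adjusted p = 6.86e-05). F held 112, 106 and 109 CPM and 90.3, 123 and 122 CPM, and LKO 144, 175 and 169 CPM and 170, 165 and 151 CPM, again without overlap. The mean difference of LKO was 0.56 ± 0.09 (adjusted p = 0.0014). Within a single time, the LKO difference at CT14 (0.53 ± 0.13, adjusted p = 0.0412) was lost without any of the 6 libraries compared (adjusted p 0.0586 to 0.209). G6pc1, the catalytic glucose-6-phosphatase, was not called by edgeR, and its libraries spread from 45.4 to 562 CPM. F libraries held 186, 344 and 288 CPM at CT2 versus 79.5, 93.6 and 81.4 CPM at CT14, without overlap, and the authors' deposited table called G6pc1 lower at CT14 there (-1.72, adjusted p = 1.81e-06). It was also called lower with time in LKO (adjusted p = 0.000797) and higher in LKO than in F at CT14 (adjusted p = 7.39e-05) in the authors' deposited tables.

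Among the gluconeogenic bypass enzymes, none of the 4 members was called in any comparison by edgeR. Pck1, the cytosolic phosphoenolpyruvate carboxykinase, stood at 447, 1001 and 374 CPM at CT2 versus 2365, 2633 and 1803 CPM at CT14 in WT. KO libraries held 444, 347 and 557 CPM at CT2 versus 1821, 676 and 2803 CPM at CT14. The fitted rise with time was 1.90 in WT and 1.97 in KO on the log2 scale, and neither passed the threshold in edgeR. The authors' deposited tables called both (adjusted p = 5.08e-07 in WT and 0.000603 in KO). In F, CT2 libraries held 298, 1594 and 923 CPM, a coefficient of variation of 69.1%, and in LKO they held 690, 2393 and 452 CPM, a coefficient of variation of 89.8%. Replicates of Pck1 thus differed by more than many of the group means. Fbp1, fructose 1,6-bisphosphatase, was the most abundant member per transcript length, with group means of 864 to 1118 TPM. Its log2 differences at CT14 were -0.49 in KO and -0.23 in LKO, without a call in edgeR, while the authors' deposited table called Fbp1 lower in KO at CT14 (adjusted p = 0.00943). Pcx, pyruvate carboxylase, held 337 to 700 CPM over all libraries and was called lower in LKO at CT14 in the authors' deposited table alone (adjusted p = 0.00376), and Pck2, the mitochondrial carboxykinase, 1.81 to 7.23 CPM.

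**Figure D3:**
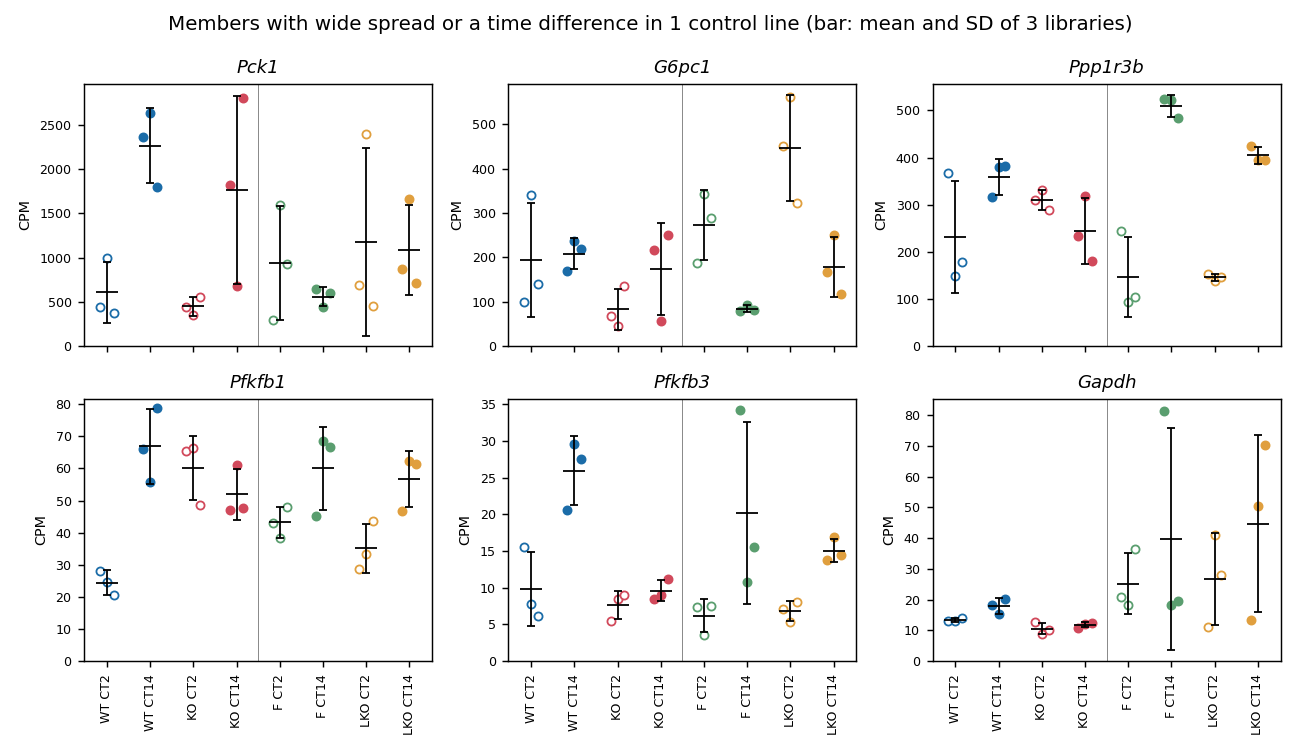
CPM per library of 6 members (vertical axis from 0) with the mean and SD of 3 libraries per group. Pck1 and G6pc1 spread widely within groups, Pfkfb1 is lowest in WT CT2 (20.6 to 28.2 CPM), and Gapdh is highest in F CT14 replicate 1 (81.4 CPM).

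In glycolysis, Pklr, the liver pyruvate kinase of the last step, changed most. WT libraries held 128, 104 and 123 CPM at CT2 versus 585, 338 and 333 CPM at CT14. KO libraries held 134, 131 and 160 CPM at CT2 versus 93.1, 121 and 89.4 CPM at CT14. At CT2 the KO libraries lay a little above WT (0.26 ± 0.21, adjusted p = 0.874), and at CT14 they lay far below it, where KO was 2.05 ± 0.22 log2 units lower (adjusted p = 6.14e-06). F held 214, 234 and 210 CPM at CT2 versus 483, 413 and 506 CPM at CT14, and LKO 141, 173 and 222 CPM and 219, 251 and 162 CPM. The LKO difference at CT14 was -1.15 ± 0.21 (adjusted p = 0.00469), again without overlap.

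The bifunctional enzymes that set fructose 2,6-bisphosphate, the main activator of phosphofructokinase, behaved differently from each other. Pfkfb1, the liver form, held 28.2, 24.5 and 20.6 CPM at CT2 versus 66.1, 55.7 and 78.9 CPM at CT14 in WT, and 65.4, 66.5 and 48.5 CPM and 47.1, 61.1 and 47.6 CPM in KO. It was higher in KO at CT2 (1.30 ± 0.20, adjusted p = 0.00257), where the daytime WT level was the low one. In F (38.4 to 68.6 CPM) and LKO (28.5 to 62.2 CPM) it was not called. Pfkfb3, an inducible form, held 20.6, 29.6 and 27.5 CPM in WT and 8.49, 9.05 and 11.2 CPM in KO at CT14. That difference of -1.44 ± 0.38 (adjusted p = 0.0287) was kept only when WT CT14 replicate 1 was the library left out, and any other of the 6 raised the adjusted p to at most 0.112. In limma on TPM it was -0.97 (adjusted p = 0.0645), and without the KO libraries with spermatid transcripts it was -1.36 in edgeR (adjusted p = 0.127). The authors' deposited table called Pfkfb3 lower in KO at CT14 (adjusted p = 3.66e-10). Pfkfb2 stayed between 4.12 and 21.3 CPM and was not called by edgeR, and the authors' deposited table called it higher at CT14 in LKO (adjusted p = 0.00454).

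Eno1, the enolase, was lower in KO. At CT14 it held 426, 495 and 340 CPM in WT and 250, 173 and 217 CPM in KO, and at CT2 295, 314 and 213 CPM against 188, 150 and 201 CPM, with no overlap at either time. The mean difference was -0.80 ± 0.17 (adjusted p = 0.00698) and it was -0.72 ± 0.14 when the counts of Eno1b, a near-identical gene row, were added. At CT14 alone the difference was -0.98 ± 0.24 (adjusted p = 0.0178), and it was lost without WT CT14 replicate 1 or 2 or KO CT14 replicate 2 or 3 (adjusted p up to 0.102). In LKO the mean difference of Eno1 was -0.42 (adjusted p = 0.251). At CT14 the LKO difference was -0.71, not called by edgeR (adjusted p = 0.186) but called lower in the authors' deposited table (adjusted p = 2.86e-05). The KO effect and the LKO effect on Eno1, as the mean of both times, did not differ by edgeR (adjusted p = 0.818).

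Ldha, the lactate dehydrogenase subunit that turns pyruvate into lactate, went the other way at CT14. WT libraries held 628, 581 and 613 CPM and KO libraries 1268, 1097 and 1051 CPM, a difference of 0.91 ± 0.18 (adjusted p = 0.0039) without overlap. At CT2 the values were 1157, 856 and 768 CPM in WT and 981, 905 and 960 CPM in KO, which overlap. LKO at CT14 held 1057, 1068 and 1173 CPM and F 754, 816 and 643 CPM, also without overlap, but the difference of 0.58 was not called by edgeR (adjusted p = 0.137). It was called higher in the authors' deposited table (adjusted p = 0.000169). The mean call in KO (0.47 ± 0.13, adjusted p = 0.0335) was lost on leaving out any of 9 of the 12 libraries, all but WT CT2 replicate 1, KO CT2 replicate 2 and KO CT14 replicate 3, with an adjusted p up to 0.1. That mean call was also lost without the KO libraries with spermatid transcripts (adjusted p = 0.108), and the authors' deposited table did not make it (adjusted p = 0.106). Pgk1, phosphoglycerate kinase, was lower in LKO as the mean of both times (-0.46 ± 0.11, adjusted p = 0.0228), from 345 to 410 CPM in F to 249 to 321 CPM in LKO, with no overlap. Leaving out F CT14 replicate 2, LKO CT2 replicate 1 or 2, or any LKO CT14 library ended that call (adjusted p up to 0.0687), as did limma on TPM (-0.25, adjusted p = 0.116).

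Of the other glycolytic members, Pfkl, the liver phosphofructokinase, Gpi1, the glucose phosphate isomerase, Pgam1, the phosphoglycerate mutase, Tpi1, the triose phosphate isomerase, and Gapdh were never called by edgeR. The authors' deposited tables called Gpi1 lower in LKO at CT14 (adjusted p = 0.0107) and Gapdh lower in KO at CT14 (adjusted p = 0.0107). Gapdh, glyceraldehyde 3-phosphate dehydrogenase, is uncertain here. Its row had a median of 9.99 TPM, and a pair of rows named after it held a median of 35.0 TPM and exceeded it in 20 of 24 libraries. Reads of near-identical copies could not be assigned from these tables.

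At the entry of pyruvate into the mitochondrion, Pdk1, a kinase that inactivates pyruvate dehydrogenase, was the member called by edgeR, and only for time in F. It stood at 45.4, 57.3 and 37.9 CPM at CT2 versus 92.9, 115 and 95.0 CPM at CT14 (1.11 ± 0.23, adjusted p = 0.0117). Leaving out F CT2 replicate 3 or F CT14 replicate 2 ended the call (adjusted p up to 0.0573). Pdha1, a subunit of the complex, and the kinase gene Pdk2 were not called by edgeR. The authors' deposited tables called Pdk1 lower in LKO than in F at CT14 (adjusted p = 0.00243) and Pdha1 lower in KO as the mean of both times (adjusted p = 0.0376).

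Both fructose members were lower in both knockouts. Khk, ketohexokinase, which phosphorylates fructose and whose window with an E-box is printed above, held 392, 377 and 433 CPM at CT2 versus 560, 459 and 483 CPM at CT14 in WT. KO libraries held 385, 241 and 264 CPM and 254, 240 and 269 CPM, so that the groups overlapped at CT2 and not at CT14. The mean difference was -0.70 ± 0.12 (adjusted p = 0.00111). F held 487, 556 and 551 CPM and 486, 558 and 525 CPM, and LKO 249, 297 and 391 CPM and 279, 323 and 262 CPM, all 6 below every F library. The mean difference in LKO was -0.81 ± 0.12 (adjusted p = 0.000394). Its call at CT14 alone (-0.86 ± 0.17, adjusted p = 0.00849) was lost without LKO CT14 replicate 1 or 3 (adjusted p up to 0.0729).

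Tkfc, the triokinase of the next steps, held 322, 302 and 270 CPM at CT2 versus 707, 539 and 614 CPM at CT14 in WT, and 253, 235 and 252 CPM and 246, 312 and 238 CPM in KO. KO was lower at CT14 by 1.23 ± 0.19 log2 units (adjusted p = 0.000345), with no overlap at either time. F held 390, 404 and 394 CPM and 674, 561 and 519 CPM, and LKO 192, 249 and 376 CPM and 352, 383 and 318 CPM, below F throughout. The mean difference in LKO was -0.64 ± 0.13 (adjusted p = 0.00755). It missed the threshold with only F and LKO fitted (adjusted p = 0.0527), and the call at CT14 alone (-0.74 ± 0.19, adjusted p = 0.0462) was lost without any of the 6 libraries compared (adjusted p 0.0703 to 0.222).

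The time of day was compared within each genotype, so that these comparisons share the CT14 control libraries with those of the knockouts above. In WT, 6 members were higher and 1 was lower at CT14 than at CT2, beside 1.10% and 1.44% of all genes (2.54% called). The median log2 difference was 0.30 over the members, with 29 of 34 above 0, beside 0.00 over all genes tested. Gys2 rose by 1.92 ± 0.18, Pklr by 1.82 ± 0.22, Slc37a4 by 1.63 ± 0.19, Pfkfb1 by 1.45 ± 0.20, Tkfc by 1.06 ± 0.19 and Slc2a2 by 0.73 ± 0.19. Ppp1r3c fell by 2.18 on the log2 scale. The Slc2a2 call was lost without WT CT2 replicate 1 or 2 or WT CT14 replicate 1 or 2 (adjusted p up to 0.245). It was also lost with the replicate block (adjusted p = 0.0598), in limma on TPM (0.128), with only the WT libraries fitted (0.147) and with no low-count filter (0.0636).

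In F, 7 members were higher at CT14, beside 1.33% of all genes, and 0 lower (2.66% called in either direction). Gys2 (1.59 ± 0.17), Pklr (1.09 ± 0.21), Slc2a2 (1.0 ± 0.19) and Slc37a4 (0.71 ± 0.19) were shared with WT, 4 of the 6 higher in WT and 4 of the 7 in F. Ppp1r3b, Pfkfb3 (1.71 ± 0.38) and Pdk1 made up the rest. For Pfkfb3 edgeR made no call for time in WT or LKO. The authors' deposited tables called it higher at CT14 in both, by 1.40 in WT (adjusted p = 0.000568) and 1.13 in LKO (adjusted p = 0.000476). When only the F libraries were fitted, 0 members were called, with similar fold changes and adjusted p from 0.0606 for Gys2 to 0.332 for Slc37a4. The Pfkfb3 call was lost without F CT2 replicate 2 or F CT14 replicate 1 (adjusted p up to 0.154), and the Slc37a4 call without any library but F CT2 replicate 3 (adjusted p up to 0.221).

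In KO no member was called for time by edgeR, and 0% of all genes were. There 3 members had an unadjusted p under 0.05, DESeq2 called 0 and the authors' deposited table called 1, Pck1, beside 0.217% of its genes. In LKO, Ppp1r3b and Slc37a4 (0.88 ± 0.19, adjusted p = 0.0373) were higher at CT14, beside 0.444% of all genes, and 0 members were lower (0.848% called in either direction). Without any LKO library but CT2 replicate 3, the Slc37a4 call was lost (adjusted p up to 0.185).

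**Figure D4:**
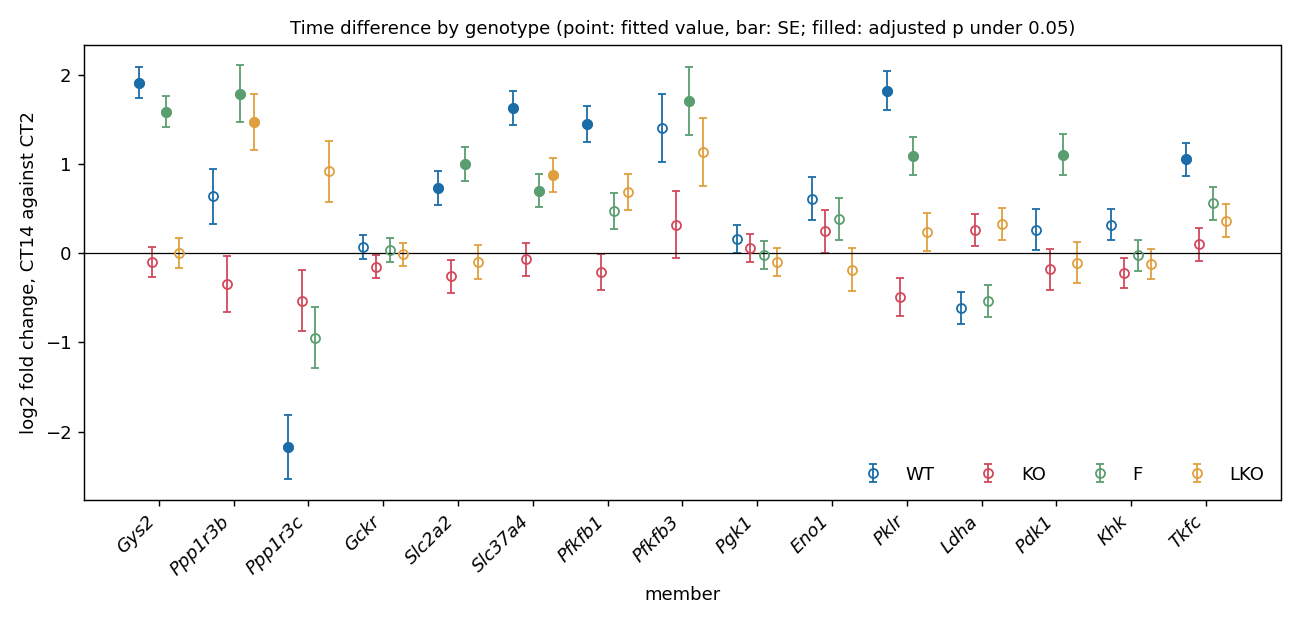
Fitted log2 fold change of CT14 against CT2 in WT, KO, F and LKO for the 15 members called in at least 1 comparison, with SE bars and filled points at adjusted p under 0.05. Gys2 lies at 1.92 in WT and 1.59 in F, and at -0.10 in KO and 0.01 in LKO.

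Whether the time difference itself changed was tested as an interaction. Between KO and WT it was lower for 4 members, beside 0.297% of all genes, and higher for 0 (0.799% called in either direction). The change was -2.31 ± 0.30 for Pklr (adjusted p = 0.00031), -2.01 ± 0.24 for Gys2 (adjusted p = 0.000145), -1.70 ± 0.27 for Slc37a4 (adjusted p = 0.00222) and -1.67 ± 0.28 for Pfkfb1 (adjusted p = 0.00445). Between LKO and F only Gys2 was called (-1.58 ± 0.24, adjusted p = 0.00423), beside 0.0585% of all genes lower and 0.112% called. Its adjusted p was 0.0683 when only F and LKO were fitted. For Slc37a4 the change between LKO and F was 0.18 ± 0.27, and for Pklr -0.85 ± 0.30, neither called.

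The time difference in LKO was also set against that in KO, and no member differed by edgeR, with 0.0341% of all genes called. Here 10 members had an unadjusted p under 0.05 and DESeq2 called 3. Slc37a4 differed by 0.95 ± 0.27 (adjusted p = 0.207) and Ppp1r3b by 1.82 ± 0.44 (adjusted p = 0.165). The KO effect and the LKO effect, each as the mean of both times, differed for no member by edgeR, with 0.107% of all genes called, 3 members at an unadjusted p under 0.05 and 1 called by DESeq2. For Gys2 the KO effect minus the LKO effect was -0.75 ± 0.17 (adjusted p = 0.111). The F and WT control lines were compared without any deletion, and 0 members were called by edgeR, beside 2.54% of all genes. There 5 members had an unadjusted p under 0.05 and DESeq2 called 2. Pklr was 0.53 ± 0.15 log2 units higher in F (adjusted p = 0.0645). KO and WT came from other matings than LKO and F, so the KO and LKO effects were each read against their own controls.

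**Figure D5:**
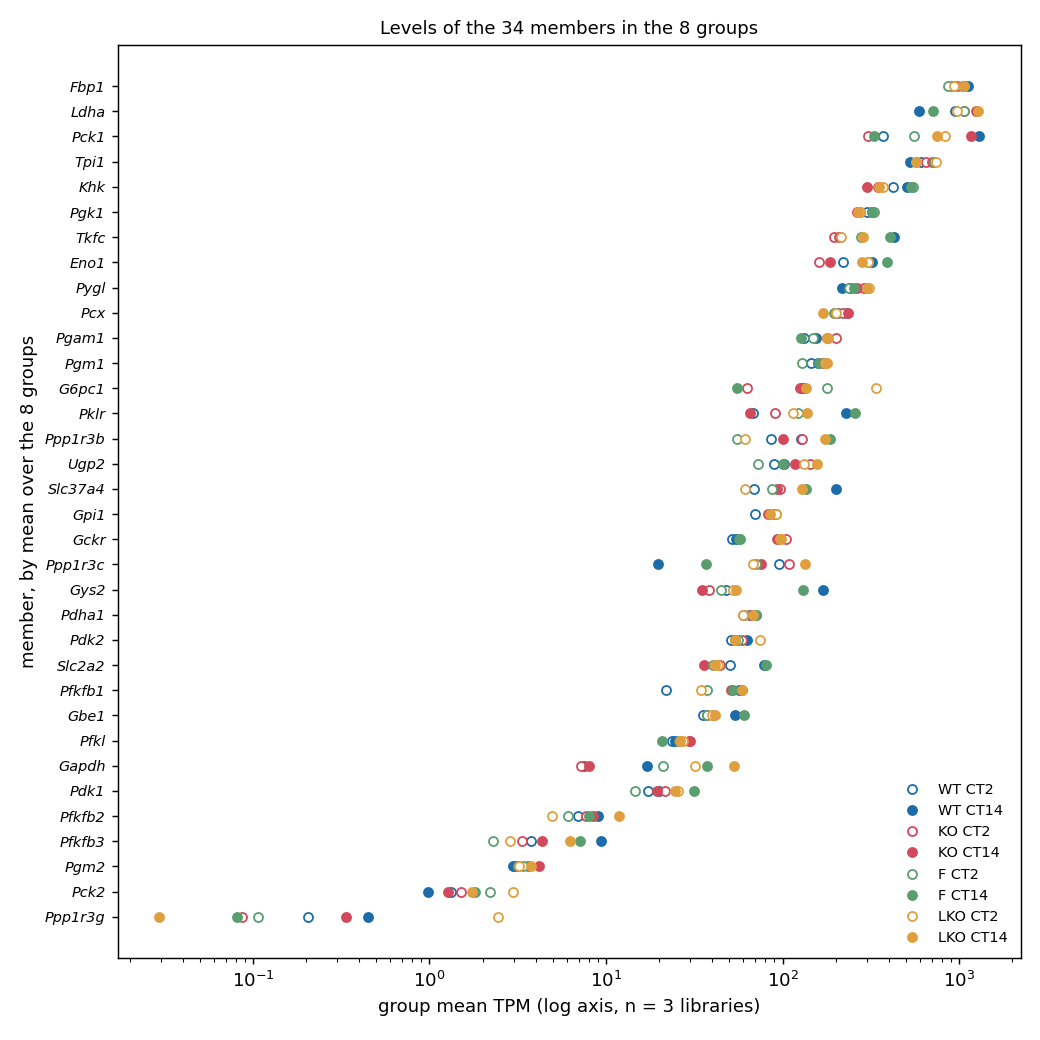
Group mean TPM (log axis) of the 34 members in the 8 groups, sorted by the mean over groups. Fbp1 (864 to 1118 TPM) and Ldha (590 to 1276 TPM) lie at the top and Ppp1r3g (0.0294 to 2.44 TPM) at the bottom.

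Per transcript length the 34 members spanned several orders of magnitude, and together they made up 0.567% to 0.805% of all TPM in a library. After Fbp1 and Ldha the highest means were those of Pck1, Tpi1 and Khk, and the lowest were those of Pfkfb3, Pgm2, Pck2 and Ppp1r3g. Among the called members, group means in TPM ran from 35.1 to 170 for Gys2, from 65.6 to 259 for Pklr and from 301 to 549 for Khk. Within groups, the coefficient of variation of CPM had a median over the 8 groups of 6.56% for Gckr and 8.89% for Khk. It was 51.6% for Pck1 and 33.5% for G6pc1.

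Other genes of glucose metabolism were read from a fixed list of 81. In KO, 5 were higher and 4 lower than in WT as the mean of both times, and their median difference was 0.01. Pdk4, a pyruvate dehydrogenase kinase, rose by 1.96 ± 0.34 and Pfkfb4, another fructose 2,6-bisphosphate enzyme, by 1.52 ± 0.28. Slc16a1, a lactate and pyruvate transporter, rose by 0.58 ± 0.11. In LKO, 4 were higher and 1 lower than in F, with Pdk4 (1.30 ± 0.33) and Slc16a1 (0.46 ± 0.11) among the higher. The genes of this list that were lower in KO or LKO are not named here. Of 25 regulators of glucose genes, 4 were lower in KO and 0 higher, and 3 were lower and 1 higher in LKO. For both lists the shares of all genes are those given above, 3.11% higher and 2.29% lower in KO and 1.70% and 1.43% in LKO. Mlxipl, the carbohydrate response factor ChREBP that acts on Pklr and other genes of sugar use, fell by 0.40 on the log2 scale in KO (adjusted p = 0.0379) and by 0.45 in LKO (adjusted p = 0.0274). Whether it had a part in the Pklr difference was not tested. Not all regulators called are named here, and Foxo3, on the same list, is given under other observations.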

How the data were processed

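Transcripts were measured by RNA-seq of polyadenylated liver RNA in 24 libraries, made with a stranded library kit. The authors deposited estimated counts per Ensembl gene, not normalized, and a table in TPM, transcript levels corrected for length and scaled to the library. Tables of comparisons deposited by the authors hold log2 fold changes. The authors' deposited p-values are given beside them, and both were used here only for calls of members, each credited to them. The submitters' processing notes name the build GRCm39 and the tools StringTie 1.3.1, HISAT2 2.2.1 and fastp 0.23.2. Which annotation release and strand setting were used is not given in the sources used here. Estimated counts are not numbers of sequenced fragments, and total counts bound the precision only in part.

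For the tests, estimated counts were rounded to integers. edgeR 4.0.16 (R 4.3.3) was run with filterByExpr (minimum count 10, minimum total 15), TMM scaling and 1 quasi-likelihood model with robust estimation and 8 group means over all 24 libraries. Adjusted p-values (Benjamini-Hochberg, over 20514 genes) under 0.05 were calls. CPM used TMM-scaled library sizes, log2 fold changes carry their SE, and n is 3 libraries per group. The script was tested on simulated data. Alternatives were DESeq2 1.42.0, DESeq2 size factors, limma 3.58.1 on log2(TPM + 1), which understates changes of low genes, no low-count filter, only the compared groups, a replicate block, libraries left out, and, chosen after seeing the data, members summed with rows named after them. On TPM, differences of abundant members could also be smaller, as for Pgk1 in LKO as the mean of both times (-0.25, against -0.46 in edgeR). Khk at CT14 had means of 523 CPM in F and 288 CPM in LKO, but 535 and 354 TPM. The cause was not tested. The members and lists were chosen with earlier results of these data known. Every member is accounted for, and those called in at least 1 of 15 comparisons are described in full. At most 6 other glucose genes and 4 regulators per direction could be named by size of change, and not all of these were named. The RefSeq promoter windows are on build GRCm38.p6, and no coordinate was carried between builds. The result for 1 gene of the list of other glucose genes is not reported here.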

Additional observations from a re-analysis of the deposited data

Results flagged for a closer look

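The difference between CT14 and CT2 was not the same in knockout and control for 4 members in the global knockout and 1 in the liver knockout, each by the test of the difference itself. Between KO and WT the log2 change was -2.01 for Gys2 (adjusted p = 0.000145), -1.70 for Slc37a4 (adjusted p = 0.00222), -1.67 for Pfkfb1 (adjusted p = 0.00445) and -2.31 for Pklr (adjusted p = 0.00031). Between LKO and F it was -1.58 for Gys2 (adjusted p = 0.00423). All 5 were still called whichever single library was left out.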

How the results depend on the processing

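Of 58 calls of a member in a comparison, 43 held whichever library was left out, and no call changed direction under any alternative run. DESeq2 kept all 58, limma on TPM 51, DESeq2 size factors 56, no low-count filter 50, only the compared groups 42, leaving out the KO libraries with spermatid transcripts 53, and members summed with rows named after them (chosen after seeing the data) 58. Replicate numbers did not pair the samples in general: same-number deviations correlated at -0.146 to 0.312, and all were above 0.1 in 1 of 8 group pairs, F and LKO at CT2. With the replicate block 55 calls held (those lost were Gckr and Tkfc in LKO against F at CT14, adjusted p = 0.0605 and 0.0702, and Slc2a2 for time in WT, 0.0598), 0 members were called in LKO against F at CT2 as without it, and 12 members instead of 11 in KO against WT at CT14. Counts of members called moved by over 1.5 times as follows. Without libraries with pancreatic transcripts or a low mitochondrial share, 14 members were called in KO against WT (mean; 9 before), 2 in LKO against F at CT2 (0 before) and 1 for time in LKO (2 before). With only the compared groups, it was 1 in KO against WT at CT2, 11 in LKO against F at CT14, 0 for time in F, 1 for time in LKO and 0 for the time difference of LKO minus F. DESeq2 called 3 in LKO against F at CT2, 5 for time in LKO, 7 and 4 for the time differences KO minus WT and LKO minus F, 3 for LKO minus KO, 1 for the KO effect minus the LKO effect and 2 for F against WT. Limma on TPM called 1 in LKO against F at CT2, and no low-count filter gave 1 for time in LKO. The cause of these shifts was not tested. Leaving out 1 library gave 7 to 9 (KO mean), 7 to 10 (LKO mean), 9 to 10 and 3 to 5 (KO and LKO at CT14), 2 to 2 and 0 to 2 (at CT2), 6 to 7, 5 to 6, 0 to 0 and 0 to 1 (time in WT, F, KO and LKO), 4 to 5 and 1 to 1 (time differences KO minus WT and LKO minus F), 0 to 0 (LKO minus KO), 0 to 1 (KO effect minus LKO effect) and 0 to 1 (F against WT). The KO effect minus the LKO effect uses all groups, so no fit with only the compared groups was run for it. With 3 libraries per group, small changes and some large ones could not be told from the spread, and low members such as Ppp1r3g, Pck2 and Pgm2 carry few counts. Known changes were placed in simulated KO counts of 50 genes per fold change, drawn at random from all genes that passed the filter. They were tested against WT as the mean of both times. The fit called 14% of 1.5-fold, 42% of 2-fold, 58% of 4-fold and 70% of 8-fold changes. These shares hold for genes of all levels in that comparison, and not for the members in particular or for a single time. A member without a call may still differ.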

Other observations

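Several genes outside the 34 members also differed. Foxo3, a forkhead transcription factor, held 72.4, 79.8 and 74.8 CPM in WT CT14 and 26.3, 27.3 and 28.5 CPM in KO CT14 (replicates 1, 2 and 3), a difference of -1.47 ± 0.14 (adjusted p = 1.13e-06 in edgeR). In LKO it was 0.71 ± 0.14 log2 units below F at CT14 (adjusted p = 0.00544). Irs2, an insulin receptor substrate, held 10.7, 9.73 and 12.7 CPM in WT CT14 and 79.4, 25.0 and 56.2 CPM in KO CT14, and its time difference was 3.23 ± 0.52 log2 units lower in LKO than in KO (adjusted p = 0.032).

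Genes of the testis forms of glycolytic enzymes, Pgk2 and Gapdhs among them, were at or near 0 in WT. Pgk2 had 0 counts in all 6 WT libraries and 0.228 to 0.725 CPM in F (adjusted p = 0.0168 for F against WT in edgeR). Gapdhs was higher in F than in WT by 2.23 ± 0.39 log2 units (adjusted p = 0.00644). Summed over 7 genes, spermatid transcripts reached at most 0.407 CPM in WT, 4.77 to 21.7 CPM in F and 5.89 to 14.2 CPM in LKO. In KO they stood at 4.76 CPM in CT2 replicate 2 and 5.44 CPM in CT14 replicate 1 and at most 0.0449 CPM in the other 4 libraries. Without those KO libraries (CT2 replicate 2 and CT14 replicate 1), 53 of 58 edgeR calls held. In KO against WT, the calls of Ldha (mean of both times, adjusted p = 0.108) and Pfkfb3 (CT14, 0.127) were lost. Comparisons without KO libraries lost Tkfc in LKO at CT14 (0.0673), Slc2a2 for time in WT (0.0635) and Slc37a4 for time in F (0.0681). The part of these transcripts in the results was not otherwise tested.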
